A study of Homo sapiens with 4 samples.

Results

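The proneural bHLH factors are transcription factors with a basic helix-loop-helix domain that drive dividing precursors towards a neuronal fate. The 9 genes described here are NEUROG1, NEUROG2, NEUROD1, NEUROD2, NEUROD4, NEUROD6, ATOH1, OLIG2 and PTF1A. They were named as a gene family with earlier results of these data known, and all 9 had a row among the 36601 genes of the count matrices. The study grew H9, an established human embryonic stem cell line, into enteric ganglioids, which are 3D cultures meant to model the nervous system of the gut. Their nuclei were profiled by single-nucleus RNA sequencing (snRNA-seq) in 2 control samples without PP121 and 2 samples given PP121, an inhibitor of several kinases, at 2 µM from day 15 to day 20. By the deposited annotation, the first replicates of both groups are of day 42 and the second replicates of day 38. Either day thus has a control and a PP121 sample. The paper instead gives 1 common day for these ganglioids, which lies between those 2, and the annotated days were used here. The sample name in that annotation differs from the label for both control libraries: replicate 1 is named there as replicate 2, and replicate 2 as replicate 1 of stage 2, whereas the labels place all 4 samples in stage 1 of the culture. The labels were followed, and the pairs by day rest on the annotated day and not on the number. The labels name no genetic change, all 4 samples came from 1 cell line, and the paper describes its ganglioid sample as a pool of ganglioids. Whether the control and PP121 samples of a day came from the same differentiation was not established. Annotated nuclei numbered 4283 in control replicate 1, 3030 in control replicate 2, 4587 in PP121 replicate 1 and 2912 in PP121 replicate 2, with median depths of 6289 to 7071 unique molecular identifiers (UMIs, each a counted RNA molecule) and 0 to 8 cell barcodes shared between any 2 libraries.

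Proneural factors act as pairs with E proteins (TCF3, TCF4 and TCF12) and bind a short DNA motif, the E-box. NEUROG1 and NEUROG2 stand early, in precursors that leave the cell cycle, and switch on Notch ligands as well as later factors of the NEUROD family. ATOH1, OLIG2 and PTF1A act, among other places, in the hindbrain and spinal cord, where PTF1A directs precursors to an inhibitory fate. ID proteins hold E proteins away from their partners, and HES and HEY proteins, which Notch induces, repress the proneural genes.

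The deposited classes were enteric neuron, progenitor 1, progenitor 2, mesenchymal, epithelial and unknown, and they were checked against marker lists. The 11 markers of enteric neurons summed to 7457 to 10236 CPM (UMIs of the genes scaled to all UMIs of the class in a sample) in the neurons of the 4 samples and to 1312 to 1758 CPM in the progenitors. A list of 7 genes of the enteric neural crest lineage summed to only 26.9 to 72.6 CPM in the neurons, and HAND2, a factor of that lineage, had at most 3 UMIs per sample in neurons and in progenitors. A list of 20 markers of central nervous system neurons and precursors summed to 567 to 1121 CPM in the neurons. The members with the highest mean there were PAX2 (210.3 to 528 CPM), PAX8 (42.3 to 314 CPM) and TFAP2B (127 to 188 CPM), followed by LHX1 and LMX1B, and EMX2, NKX2-2 and DBX1 were among those with at most 3 UMIs in every sample. A list of 11 markers of cranial and dorsal root sensory neurons summed to 304 to 408 CPM in the neurons and to 517 to 734 CPM in the progenitors. The name enteric neuron is that of the deposited annotation.

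All 9 genes were at low counts, and 4 of them carried most of the signal. Over the 14812 annotated nuclei, 517 UMIs were counted for NEUROD4, 331 for PTF1A, 265 for NEUROG2 and 155 for NEUROD2. NEUROD1 had 55 UMIs, NEUROG1 had 33 and ATOH1 had 19. OLIG2 had 4 UMIs and NEUROD6 had 3, too few to describe beyond their count. The nuclei without an annotation held a further 187 UMIs of NEUROD4, 179 of PTF1A, 118 of NEUROG2 and 36 of NEUROD2, and they enter no comparison. The members are short genes with few exons. In GENCODE 29 on GRCh38, NEUROD4 lies on chr12:55019945-55030014 (plus strand), NEUROG2 on chr4:112513516-112516172 (minus strand), NEUROD2 on chr17:39603536-39609777 (minus strand) and PTF1A on chr10:23192327-23194252 (plus strand). An antisense gene overlaps NEUROG2 and another overlaps OLIG2, and NEUROD1 lies within the span of CERKL on the same strand. Whether strand was used in counting is not stated, so the counts of these 3 genes may hold reads of their neighbours.

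NEUROD4, a factor of newly formed neurons, was highest in the neuron class. Its neuronal levels were 4.01 and 9.02 CPM in control replicates 1 and 2, and 4.63 and 19.3 CPM in PP121 replicates 1 and 2. The mean level was 9.24 ± 7.07 CPM (SD, n = 4) in neurons, 2.22 ± 1.42 in progenitor 1 and 1.51 ± 0.520 in progenitor 2. Neurons held 423 of its UMIs, 81.8% of the total, and progenitors held 81. With each nucleus thinned to 2000 UMIs, a NEUROD4 UMI was found in 1.47% of neurons (exact 95% interval 1.19 to 1.79), in 0.256% of progenitors (0.149 to 0.410) and in 0.111% of mesenchymal nuclei, which should lack it (without thinning, in 4.12% of neurons). The neuronal share thus stood above the background while the progenitor share did not stand clear of it. These intervals cover counting error only, and in a sum over a class, fewer cells that express a gene and less RNA per cell cannot be told apart.

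NEUROG2, the neurogenin with the most counts, had its highest mean levels in neurons and in progenitor 2. Its neuronal levels were 2.80 and 2.98 CPM in the control replicates and 2.44 and 5.25 CPM in the PP121 replicates, with a mean of 3.37 ± 1.28 CPM (SD, n = 4). In progenitor 2 the mean was 2.30 ± 0.700 CPM and in progenitor 1 it was 1.11 ± 0.298 CPM. The levels of neurons and progenitor 2 differed by less than their spread. In mesenchymal nuclei it was 0.144 ± 0.288 CPM, and at 2000 UMIs per nucleus 0 of 898 of those nuclei held a UMI, which allows a share of up to 0.334%. The thinned shares were 0.444% of neurons (0.297 to 0.637) and 0.407% of progenitors (0.268 to 0.592). Both intervals reach below that limit, so at this thinned depth the shares cannot be set clear of background. Without thinning the share was 2.29% of neurons, 1.17% of progenitors and 0.22% of mesenchymal nuclei.

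PTF1A was the only one of the 4 with most of its UMIs in the progenitors. Progenitors held 242 of its 331 UMIs (73.1%) and neurons 85. Over progenitor 1 and 2 together its level was 7.29 and 3.62 CPM in control replicates 1 and 2, and 5.42 and 3.47 CPM in PP121 replicates 1 and 2. In the neurons of the same samples it was 1.85, 1.89, 1.19 and 1.03 CPM, so the progenitors were above the neurons in each sample. The mean was 4.26 ± 1.73 CPM (SD, n = 4) in progenitor 1 and 5.42 ± 1.85 in progenitor 2, which differed by less than their spread. At 2000 UMIs per nucleus, 0.905% of progenitors (0.691 to 1.16) and 0.352% of neurons (0.223 to 0.528) held a PTF1A UMI, against 0.223% of mesenchymal nuclei (0.0270 to 0.802). The mesenchymal interval overlaps both of the others, so at this thinned depth the shares cannot set either class clear of background. The summed level in mesenchymal nuclei was 0.288 ± 0.576 CPM from 4 UMIs. Without thinning the share was 3.26% of progenitors, 1.16% of neurons and 0.443% of mesenchymal nuclei.

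NEUROD2 and NEUROD1, factors of maturing neurons, had most of their UMIs in neurons. NEUROD2 was the steadiest of the members there, at 2.11 and 1.98 CPM in the controls and 2.14 and 1.48 CPM in the PP121 samples. Its mean was 1.93 ± 0.304 CPM (SD, n = 4) in neurons, 0.510 ± 0.626 in progenitor 1 and 0.674 ± 0.279 in progenitor 2. In mesenchymal nuclei it was 1.06 ± 1.26 CPM from 6 UMIs, highest (2.80 CPM) in control replicate 1, where that class held only 40 nuclei. The thinned NEUROD2 share of 0.413% of neurons was close to the 0.334% of mesenchymal nuclei, so at that depth it was not clear of background. Without thinning the share was 1.66% of neurons and 0.66% of mesenchymal nuclei. NEUROD1 had 43 of its 55 UMIs in neurons, at 0.422, 0.902, 0.654 and 1.60 CPM in the order given above, a mean of 0.894 ± 0.509 CPM against 0.205 ± 0.0701 CPM in progenitors. In mesenchymal nuclei it was 0.910 ± 1.64 CPM from 2 UMIs. Most of that mean came from PP121 replicate 1 (3.36 CPM), where the class held 33 nuclei and 3 UMIs would give 10.1 CPM. These counts are too few to set the neuronal level of NEUROD1 against background.

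NEUROG1 and ATOH1 were seen mostly in the day-38 samples. NEUROG1 had 0 UMIs in the neurons of both day-42 samples, and its neuronal level was 0.992 CPM in control replicate 2 and 0.914 CPM in PP121 replicate 2. ATOH1 had 9 UMIs in neurons, all of them in PP121 replicate 2 (1.03 CPM), and over all annotated nuclei 16 of its 19 UMIs came from that library. It is thus described for 1 library only. OLIG2 had no UMI in neurons, 0 of 6536 thinned nuclei, which allows a share of up to 0.0459%.

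**Figure D1:**
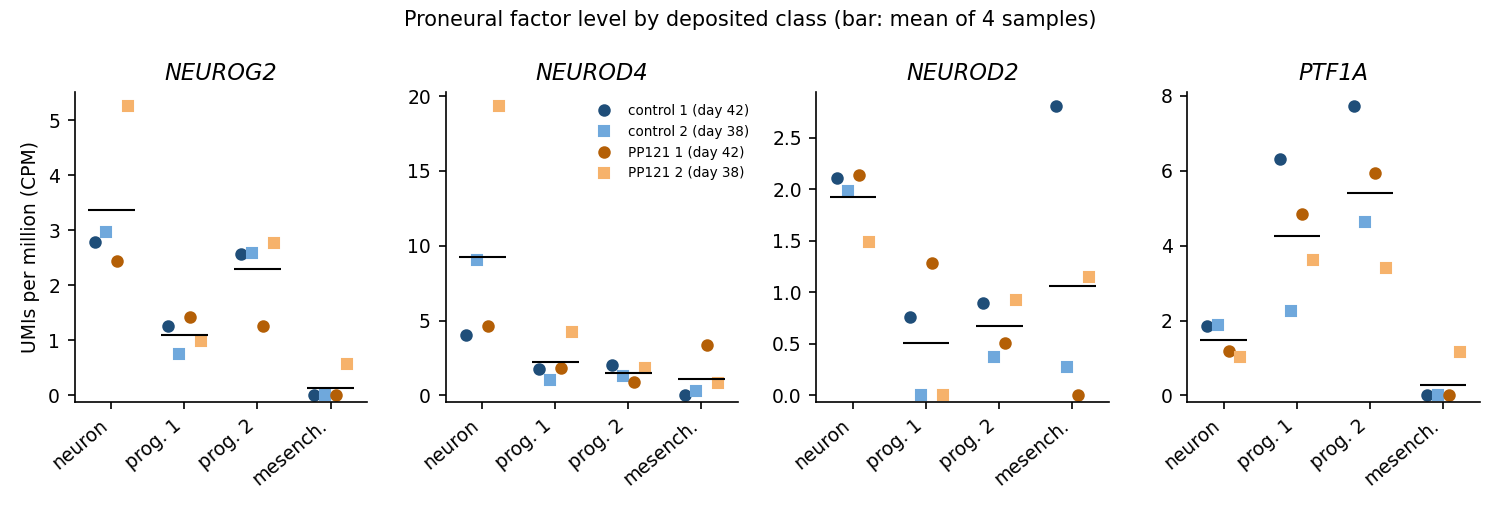
Level (CPM of the summed UMIs of a class) of NEUROG2, NEUROD4, NEUROD2 and PTF1A in neurons, progenitor 1, progenitor 2 and mesenchymal nuclei, with 1 point per sample and a bar at the mean of the 4 samples. NEUROD4 and NEUROD2 are highest in neurons, PTF1A is higher in both progenitor classes than in neurons, and the neuronal NEUROD4 level of PP121 replicate 2 (19.3 CPM) lies above the other 3.

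Few nuclei held UMIs of more than 1 member. A UMI of any of the 9 was found in 167 of 2301 and 121 of 1250 neurons of control replicates 1 and 2 (7.26% and 9.68%), and in 148 of 2030 and 170 of 976 neurons of PP121 replicates 1 and 2 (7.29% and 17.4%). Neurons with UMIs of 2 or more members numbered 16, 13, 12 and 16 in the same order. The most frequent pair in neurons was NEUROG2 with NEUROD4. Of the 150 neurons with a NEUROG2 UMI, 26 also held NEUROD4 (7, 5, 6 and 8 by sample), against 270 of 6557 neurons overall. In progenitors the most frequent pair was NEUROG2 with PTF1A, in 11 nuclei, while NEUROG2 with NEUROD4 was found in 5.

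Within the neurons, NEUROG2 and NEUROD4 peaked in the same deposited subtype. The authors defined EN 1 to EN 8 by clustering control neurons alone. They defined EN A to EN I by clustering control and PP121 neurons together. The deposited names are EN 1 to EN 8 in the control samples and EN A to EN I in the PP121 samples. Both genes were highest in EN 6 in each control sample and in EN F in each PP121 sample. These subtypes were singled out after their values were seen, so what follows is a description without a test, and no correspondence between the annotations was assumed. EN 6 held 126 and 155 nuclei of control replicates 1 and 2, and EN F held 135 and 182 nuclei of PP121 replicates 1 and 2.

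NEUROG2 was at 17.1, 12.5, 12.9 and 16.9 CPM in EN 6 or EN F in the 4 samples, and at 1.91, 1.37, 1.77 and 2.29 CPM in the other neurons. That is 14.8 ± 2.49 against 1.83 ± 0.381 CPM (SD, n = 4), or 8.09 times as high, and the next-highest subtype of each sample reached 2.47 to 4.89 CPM. NEUROD4 was at 29.7, 33.7, 23.8 and 59.1 CPM inside and at 2.41, 4.85, 3.41 and 9.17 CPM outside. Its means were 36.6 ± 15.5 and 4.96 ± 2.98 CPM, a ratio of 7.37, and the next-highest subtype reached 4.24 to 15.04 CPM. No sample's level inside overlapped a level outside for either gene. The share of the neuronal UMIs that fell inside was 47.4% for NEUROG2 (82 UMIs), 51.1% for NEUROD4 (216 UMIs), 73.7% for NEUROG1 (14 of 19) and 77.8% for ATOH1 (7 of 9). NEUROD1 had 34.9% there (2.57 ± 0.792 against 0.645 ± 0.350 CPM). PTF1A, with 16.5%, and NEUROD2, with 11.7%, were less concentrated.

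**Figure D2:**
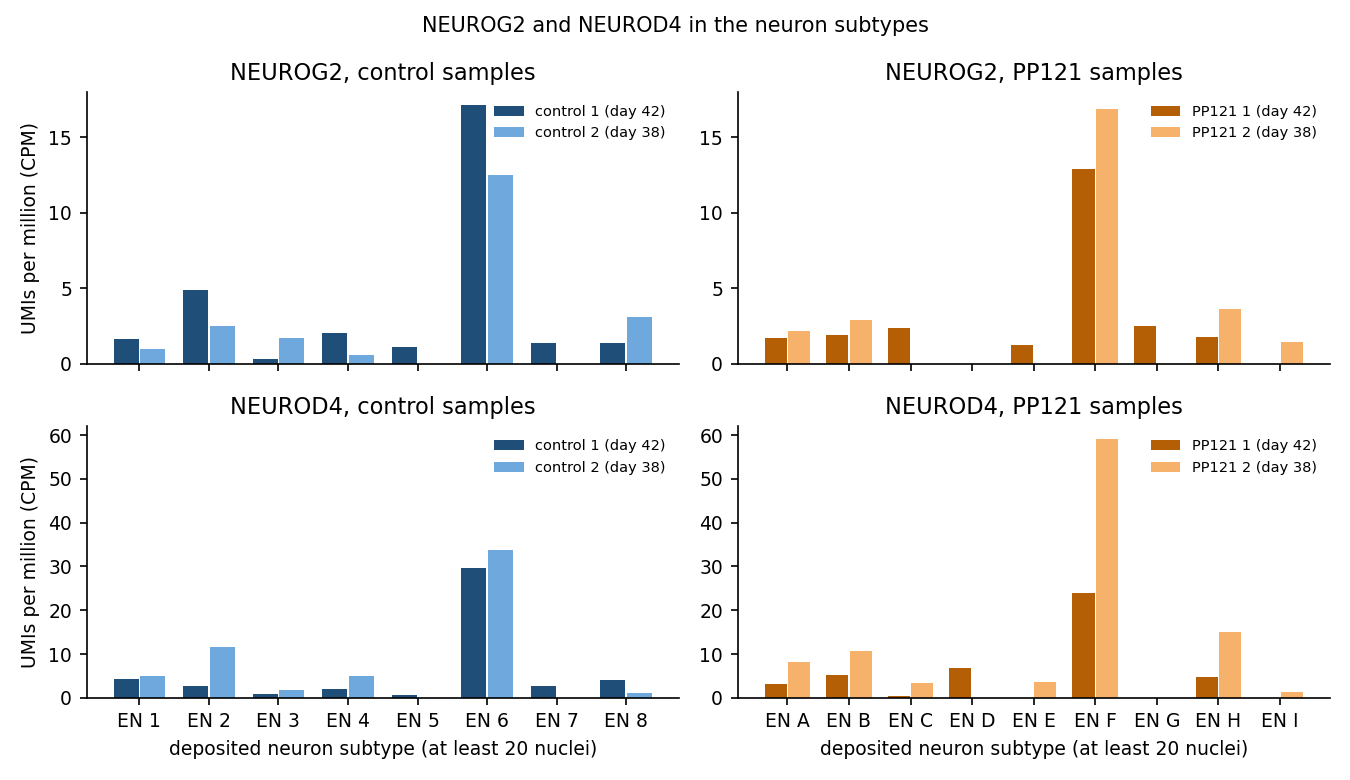
NEUROG2 and NEUROD4 levels (CPM) in each deposited neuron subtype with at least 20 nuclei, controls in EN 1 to EN 8 and PP121 samples in EN A to EN I, with 1 bar per sample. The bars of EN 6 (12.5 and 17.1 CPM for NEUROG2) and EN F (12.9 and 16.9 CPM) stand above every other subtype of the same sample.

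Other genes of neurogenesis were also higher in EN 6 and EN F. HES6, a bHLH protein that is switched on by proneural factors and favours neurogenesis, was at 202 ± 31.7 CPM inside and 25.2 ± 6.10 CPM outside. DLL1, a Notch ligand, was at 131 ± 6.70 against 25.9 ± 1.09 CPM. By list, among genes with at least 40 UMIs, all 3 E proteins, 5 of 7 inhibitors, 14 of 22 known targets of proneural factors and 3 of 6 other tissue-restricted bHLH factors were higher inside in all 4 samples, while 3 of the 22 targets (MYT1, NHLH2 and RUNX1T1) and 1 of the 6 other factors (NHLH2) were lower in all 4. The 14 targets include NEUROD1 and NEUROD4, whose levels there are given above, and NEUROD4 was seen when the subtypes were singled out. Of all 20960 genes with that many UMIs, 15.9% were higher and 23.0% lower inside in all 4 samples. Of the 8 genes of neuronal maturity none was higher in all 4 samples and 5 were lower, STMN2, a microtubule regulator of growing axons, at 132 ± 11.3 against 321 ± 62.7 CPM. Among progenitor genes, SOX2 was 4.15 times and VIM 2.55 times as high inside, whereas MKI67 and TOP2A, which mark dividing cells, were lower in all 4 samples. When the 4 samples were clustered together, 67.5% to 86.8% of these nuclei fell in clusters of progenitors, against 4.59% to 18.6% of the other neurons. Their median depth was 7771.5, 9042, 6903 and 8446 UMIs in the 4 samples, controls first. In the other neurons it was 7337, 7659, 7238 and 7911 UMIs, so these nuclei were deeper except in PP121 replicate 1.

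The sequences of 3 promoters are shown because NEUROG2, NEUROD4 and the target HES6 were higher together in these subtypes and proneural factors bind E-boxes. They are RefSeq promoters (GRCh38.p14), limited to the bases upstream of any annotated exon and printed 5′ to 3′ on the gene's own strand, with each E-box (CANNTG, which reads the same way on both strands) in capitals. NEUROG2 is from chr4:112516181-112516430 (minus strand), NEUROD4 from chr12:55019724-55019944 (plus strand) and HES6 from chr2:238240125-238240288 (minus strand).
NEUROG2: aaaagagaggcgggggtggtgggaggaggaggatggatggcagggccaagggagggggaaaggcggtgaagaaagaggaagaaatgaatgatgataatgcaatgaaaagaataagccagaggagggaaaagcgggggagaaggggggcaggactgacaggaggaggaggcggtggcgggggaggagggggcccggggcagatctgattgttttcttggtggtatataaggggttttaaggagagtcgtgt
NEUROD4: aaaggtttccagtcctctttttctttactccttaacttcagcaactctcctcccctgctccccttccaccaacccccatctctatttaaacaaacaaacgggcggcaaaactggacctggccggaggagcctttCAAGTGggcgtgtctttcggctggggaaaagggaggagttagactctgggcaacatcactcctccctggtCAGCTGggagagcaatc
HES6: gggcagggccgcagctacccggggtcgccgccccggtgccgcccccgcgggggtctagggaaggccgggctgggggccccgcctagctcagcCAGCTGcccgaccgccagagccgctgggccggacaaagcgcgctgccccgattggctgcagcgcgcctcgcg
The NEUROG2 window held 0 E-boxes, that of NEUROD4 held 2 (CAAGTG and CAGCTG) and that of HES6 held 1 (CAGCTG). Of 35116 RefSeq promoters of 250 bases, 61.8% held at least 1 CANNTG, 14.0% held CAGCTG and 12.2% held CAGATG. In their 250 bases, NEUROD6 held 4 E-boxes, NEUROD2 held 3, ATOH1 held 1, and NEUROG1 and NEUROD1 held 0. A match is a description of the letters and not a binding site.

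Whether PP121 moved the members was tested on the counts summed per sample, first in neurons. edgeR's quasi-likelihood test without a block called 0% of 21243 genes (adjusted p under 0.05), and none of the 6 members that passed its filter on low counts. An unadjusted p under 0.05 was reached by 2549 genes, and DESeq2 called 102 genes. With the replicate as a block, which sets the samples of one day against each other, edgeR called 14.8% of genes (7.98% higher and 6.86% lower under PP121) and 1 of the 6 members, NEUROD4. Its log2 fold change was 0.91 with a standard error (SE) of 0.69 (edgeR adjusted p = 0.616) without the block, and 0.74, SE 0.22 (edgeR adjusted p = 0.0222), with it. PP121 was at 1.16 times the control on day 42 and at 2.14 times on day 38. The day-42 ratio rests on 154 UMIs over both samples, and whether it exceeds counting error was not tested. Unblocked fits that leave out a library set unequal numbers of day-38 and day-42 samples against each other. Their log2 fold change was −0.45 without PP121 replicate 2 (edgeR adjusted p = 0.830), 1.67 without PP121 replicate 1 (edgeR adjusted p = 0.00156) and 1.63 without control replicate 2 (edgeR adjusted p = 0.649). With neurons defined by clusters of all 4 samples together, the blocked value was 0.73 and was not called (edgeR adjusted p = 0.211).

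The other 5 tested members were not called in neurons, with or without the block. With the block, edgeR gave NEUROD1 a log2 fold change of 0.77 (adjusted p = 0.341), NEUROG2 0.32 (adjusted p = 0.544), NEUROG1 −0.07 (adjusted p = 0.967), NEUROD2 −0.11 (adjusted p = 0.887) and PTF1A −0.69 (adjusted p = 0.278). PTF1A was lower under PP121 on both days, at 0.643 and 0.543 times the control on days 42 and 38. NEUROG2 was at 0.871 times the control on day 42 and at 1.77 times on day 38, so the samples of the 2 days moved opposite ways. ATOH1, NEUROD6 and OLIG2 did not pass the filter.

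Of 22 tested targets of proneural factors, a list that includes NEUROD1 and NEUROD4, the blocked edgeR fit called 10 higher under PP121 (DLL3, EBF1, EBF2, EBF3, MFNG, NEUROD4, NHLH1, RUNX1T1, SRRM4 and ST18) and 1 lower, the Notch ligand DLL4. The median log2 fold change of the list was 0.42, against −0.01 over all genes tested. Without the block the list's median was also 0.42 and none was called. Among other factors, NHLH1 and TWIST1 were called higher and BHLHE22 lower, TCF3 was the E protein called higher, and ID2 the inhibitor called lower. Levels of the progenitor genes VIM and TOP2A were also called higher, as were those of the neuronal genes STMN2 and SYT1. Among subtypes, NEUROD4 peaked in EN 6 in the controls and in EN F in the PP121 samples. EN F made up 6.65% of the PP121 neurons on day 42 and 18.6% on day 38. EN 6 made up 5.48% and 12.4% of the control neurons. Outside those subtypes NEUROD4 was at 3.41 CPM under PP121 and 2.41 CPM in the control on day 42. On day 38 it was at 9.17 and 4.85 CPM. EN 6 and EN F come from different clusterings, so differences between treatments in these shares and levels cannot be told apart from differences in cluster boundaries. The part of the subtypes in the values was not tested.

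In progenitors, 3 members passed the filter and none was called. edgeR called 0% of 20260 genes without the block (962 at an unadjusted p under 0.05, DESeq2 43) and 1.72% with it. The unblocked log2 fold changes were −0.21 for NEUROG2, −0.30 for PTF1A and 0.30 for NEUROD4, and each changed sign when 1 library was left out, which mixes the days, NEUROG2 to 0.20 without PP121 replicate 1, PTF1A to 0.24 without control replicate 1 and NEUROD4 to −0.29 without PP121 replicate 2. Within days, PTF1A under PP121 was at 0.743 times the control on day 42 and 0.957 times on day 38, NEUROG2 at 0.616 and 1.22 times and NEUROD4 at 0.690 and 2.24 times. The only listed genes called in progenitors with the block were ID1 and OLIG3, both higher under PP121. Over all annotated nuclei, edgeR called 0% of 24123 genes without the block (1113 at an unadjusted p under 0.05, DESeq2 48) and 0.883% with it. None of the 6 members tested there was called, and NEUROD4 had a blocked log2 fold change of 0.48 (edgeR adjusted p = 0.447).

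The dated day went with a larger difference in NEUROD4 than PP121 did. In neurons NEUROD4 averaged 14.2 CPM in the 2 day-38 samples (9.02 and 19.3) and 4.32 CPM in the 2 day-42 samples (4.01 and 4.63), so the days did not overlap. Day 38 against day 42 had a fitted log2 fold change of 1.77 with an SE of 0.39 (adjusted p = 0.549 in edgeR), in a fit in which 0% of 21243 genes were called (1574 at an unadjusted p under 0.05, DESeq2 59). With treatment as a term, in the same design as the PP121 block, 9.49% of genes were called (5.81% higher and 3.68% lower on day 38) and NEUROD4 was among them, at 1.70, SE 0.22 (edgeR adjusted p = 4.94e-06). DESeq2 also called it (adjusted p = 0.00886). Without control replicate 2 the edgeR log2 fold change was 2.24, but PP121 replicate 2 was then the only day-38 sample. That fit thus mixes day with treatment. Days and treatments were compared over the same 4 samples. With 1 sample per day and treatment, the day cannot be told apart from other differences between the replicates.

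NEUROG1 was the other member called by day. Its neuronal UMIs numbered 11 in control replicate 2, 8 in PP121 replicate 2 and 0 in each day-42 sample, so day 38 was at least 5.66-fold higher against a floor of 3 counts per library (edgeR adjusted p = 0.549 without and 0.000178 with the treatment term). The remaining members tested were not called with the term. NEUROD1 had a log2 fold change of 1.25 without it (edgeR adjusted p = 0.670, with the term 0.120), NEUROG2 0.70 (0.723, with the term 0.195), PTF1A 0.02 and NEUROD2 −0.22.

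With the treatment term, edgeR called 13 of 22 tested targets of proneural factors higher on day 38 (CBFA2T2, DLL1, DLL3, EBF1, EBF2, EBF3, HES6, INSM1, MFNG, NEUROD4, RND2, SRRM4 and ST18) and CBFA2T3 lower. The list's median was 0.62, against −0.01 over all genes. Of the E proteins, TCF3 and TCF4 were higher, and BHLHE22 and TWIST1 were among the other bHLH factors called higher. The genes of proliferation and precursors MKI67, NES, TOP2A and VIM were higher as well. EN 6 or EN F, the subtypes with the most NEUROG2 and NEUROD4, made up 12.4% and 18.6% of the day-38 neurons and 5.48% and 6.65% of the day-42 neurons, which moved with these values and whose part in them was not tested. Outside those subtypes NEUROD4 was also higher in the day-38 samples (4.85 and 9.17 CPM) than in the day-42 samples (2.41 and 3.41 CPM).

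**Figure D3:**
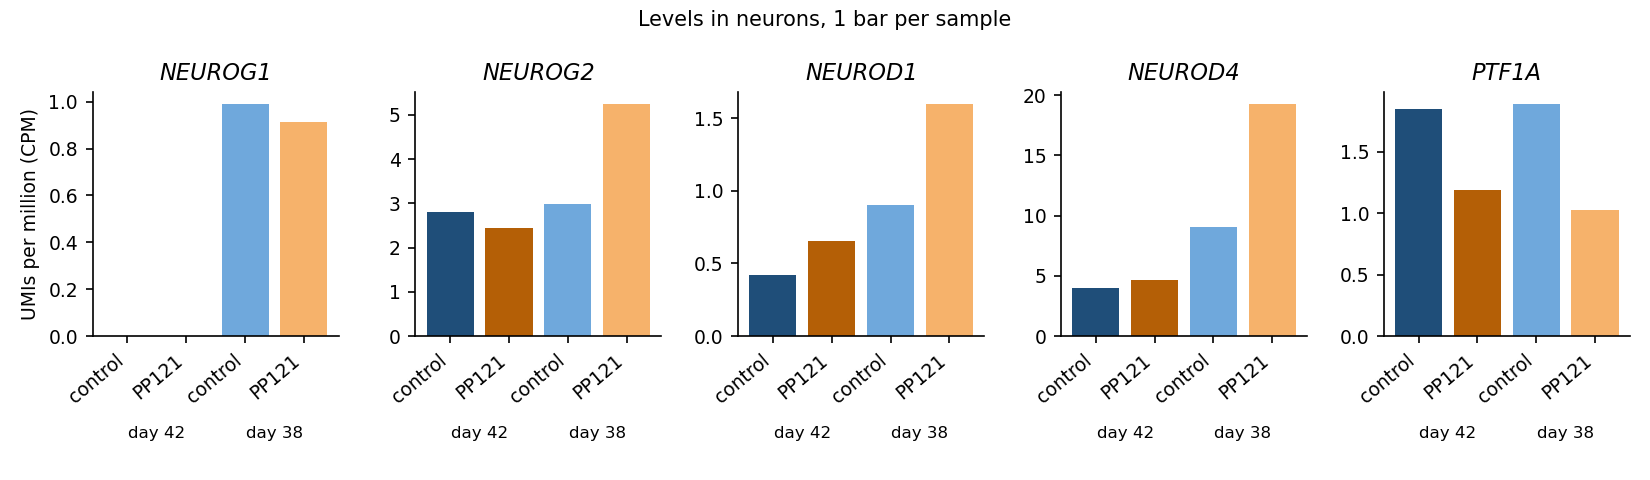
Neuronal level (CPM) of NEUROG1, NEUROG2, NEUROD1, NEUROD4 and PTF1A in each sample, with 1 bar per sample, day 42 before day 38 and control before PP121. NEUROD4 is highest in PP121 replicate 2 of day 38 (19.3 CPM) and next in control replicate 2 of the same day (9.02 CPM), and NEUROG1 is at 0 in both day-42 samples.

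In progenitors the day difference of PTF1A pointed the other way. PTF1A averaged 3.54 CPM on day 38 and 6.35 CPM on day 42, and the samples of the 2 days did not overlap. edgeR gave a log2 fold change of −0.72 with an unadjusted p of 0.0373 and an adjusted p of 0.422 (0.257 with the treatment term), so it was not called. That fit called 0% of 20260 genes (2248 at an unadjusted p under 0.05, DESeq2 106) and 2.99% with the term.

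The deposited cell-cycle phase did not separate PTF1A levels in the progenitors. In progenitor 2 PTF1A was at 5.37 ± 1.96 CPM (SD, n = 4) in G1, 5.28 ± 3.14 in S and 5.66 ± 1.84 in G2M, and in progenitor 1 at 4.68, 3.43 and 4.96 CPM. With the sample as a block, edgeR called 10.1% of 15348 genes between G2M and G1 in progenitor 2 and 4.49% between S and G1. PTF1A, the 1 member that could be tested there, had log2 fold changes of 0.09 (adjusted p = 0.927) and −0.07 (adjusted p = 0.953). Leaving out single libraries moved these between −0.0472 and 0.3868 for G2M, turning the sign without control replicate 1, and between −0.4168 and 0.2712 for S, turning it without PP121 replicate 1 or 2. In progenitor 1 no member passed the filter, where 9.11% and 0.672% of 12201 genes were called. Among neurons, NEUROD4 was at 9.11 ± 7.50 CPM in G1, 8.52 ± 5.73 in S and 12.0 ± 8.35 in G2M, and NEUROG2 at 3.38, 3.15 and 3.91 CPM, without a test.

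Nuclei with a UMI of a member were then compared with the other nuclei of the same class and sample, leaving that member out of the test. In neurons, 46, 26, 38 and 40 nuclei held a NEUROG2 UMI in the 4 samples, controls first. edgeR called 3.13% of 17025 genes, 1.53% higher and 1.6% lower. NEUROD4 was the member called. It was at 16.4, 30.3, 22.3 and 49.0 CPM in the NEUROG2 neurons of the 4 samples and at 3.68, 8.50, 4.20 and 17.9 CPM in the others, and it was higher in 4 of 4 samples. That is a log2 fold change of 1.87 with an SE of 0.35 (adjusted p = 0.00242 in edgeR).

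The E proteins and several targets were higher in the same neurons. TCF4 was at 790 ± 111 against 432 ± 59.6 CPM (SD, n = 4; log2 fold change 0.84), and TCF12 (0.46) and TCF3 (0.72, edgeR adjusted p = 0.0498) were also called. Of 20 tested targets, 7 were higher and none lower, with a list median of 0.43 against −0.05 over all genes. HES6 was at 168 ± 12.8 against 41.3 ± 14.4 CPM (log2 fold change 2.06), DLL3 at 57.7 ± 12.3 against 17.8 ± 6.43 CPM (1.72) and DLL1 at 109 ± 41.8 against 35.6 ± 4.51 CPM (1.53). MFNG (2.32), GADD45G (1.40) and ST18 (1.34) were the others besides NEUROD4. Of 7 tested inhibitors none was called.

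Genes of neuronal maturity moved both ways with NEUROG2. TUBB3, a neuronal tubulin, was higher (0.47), while STMN2 (−0.60) and the microtubule protein MAPT (−0.57) were lower. The progenitor genes SOX2 (1.13), PAX6 (1.09) and VIM (0.81) were higher. By the rule for naming, the largest rises were RGS16 (2.66), HES6, the transcription regulators LMO1 (1.96) and PRDM13 (1.90), and NEUROD4. The largest falls were CA10 (−3.36), NRN1 (−2.79), NPSR1-AS1 (−2.48), GABRG3-AS1 (−2.33) and GABRG3 (−2.14), a GABA receptor subunit. CA10 was at 0 in the NEUROG2 neurons of both PP121 samples, so its fitted value depends on the prior count. GABRG3 was at 0 there in control replicate 2 and PP121 replicate 2, and DESeq2 did not call it (adjusted p = 0.123). NRN1 was at 0 in control replicate 1 and GABRG3-AS1 in control replicate 2, so these falls rest on few counts too.

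The number of calls fell to 236 without control replicate 2 and to 340 without control replicate 1. TCF3, TCF12, MFNG, TUBB3, STMN2, MAPT, SOX2, PAX6 and PRDM13 each lost their call in at least 1 of those 4 fits, MFNG with the highest adjusted p (0.488, edgeR without PP121 replicate 1). NEUROD4, TCF4, HES6, DLL1, DLL3, GADD45G, ST18 and VIM kept theirs in all 4. The neurons with a NEUROG2 UMI were deeper (median 9030 against 7445 UMIs), and 43.3% of them fell in progenitor clusters when the 4 samples were clustered together, against 15.5% of the others. Those clusters took 14 of the 26 NEUROG2 neurons of control replicate 2 and 24 of the 40 of PP121 replicate 2. With the nuclei in those clusters left out, 75 genes were called, in a fit on fewer nuclei that can miss differences of the same size. TCF4 was called still (0.62, edgeR adjusted p = 0.0421), while 0 of 18 tested targets and none of the tested maturity and progenitor genes were, and NEUROD4 had 1.35 (edgeR adjusted p = 0.747).

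Neurons with a NEUROD4 UMI numbered 56, 57, 57 and 100, and edgeR called 7.13% of 16864 genes, 3.64% higher and 3.49% lower. NEUROG2 was the member called. It was at 12.8, 10.7, 10.6 and 9.73 CPM in the NEUROD4 neurons and at 2.50, 2.49, 2.10 and 4.66 CPM in the others, with no overlap. The log2 fold change was 1.91 with an SE of 0.41 (adjusted p = 0.00686 in edgeR).

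Of 19 tested targets of proneural factors, 13 were higher in the NEUROD4 neurons and none lower, with a list median of 0.96 against 0.004 over all genes. NHLH1, a bHLH factor of newly born neurons, was at 36.2 ± 11.02 against 7.87 ± 2.49 CPM (SD, n = 4; log2 fold change 2.20). HES6 was at 145 ± 44.5 against 38.6 ± 11.6 CPM (1.90). MFNG (2.45), ST18 (1.77), DLL3 (1.71), DLL1 (1.40), GADD45G (1.31), RND2 (1.03), INSM1 (0.96) and CBFA2T2 (0.81) were also called. The EBF factors, which act in the differentiation of new neurons, were higher too, EBF2 by 1.36, EBF3 by 0.75 and EBF1 by 0.60. All 3 E proteins were called (TCF4 0.98, TCF3 0.63, TCF12 0.48), as were SOX2 (0.85), VIM (0.69) and PAX6 (1.04). STMN2 (−0.44) and MAPT (−0.52) were lower. The largest rises were CCDC60 (2.53), EYA2 (2.52), NHLH1, RGS16 (2.04) and PRDM8 (1.95). The largest falls were PTPRT (−2.55), CNTNAP4 (−2.34), the glutamate receptor subunit GRIN2B (−2.27), GABRG3 (−2.19) and LINC01568 (−2.13).

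As with NEUROG2, depth and cluster moved with these calls. The NEUROD4 neurons were deeper (median 9531 against 7409 UMIs), and 48.9% of them fell in progenitor clusters of the joint clustering, against 14.7% of the others. With those nuclei left out, 226 genes were called, 8 of 19 targets among them (CBFA2T2, DLL1, EBF1, EBF2, EBF3, HES6, NHLH1 and ST18). TCF4 was the E protein called there, and none of the tested maturity and progenitor genes was. INSM1 and STMN2 changed sign there, at −0.25 and 0.004. Without control replicate 2, 672 genes were called, and without PP121 replicate 2, 790. TCF3, INSM1, RND2, STMN2, SOX2 and PAX6 lost their call in at least 1 fit that left out a library, INSM1 with the highest adjusted p (0.292, edgeR without control replicate 2).

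**Figure D4:**
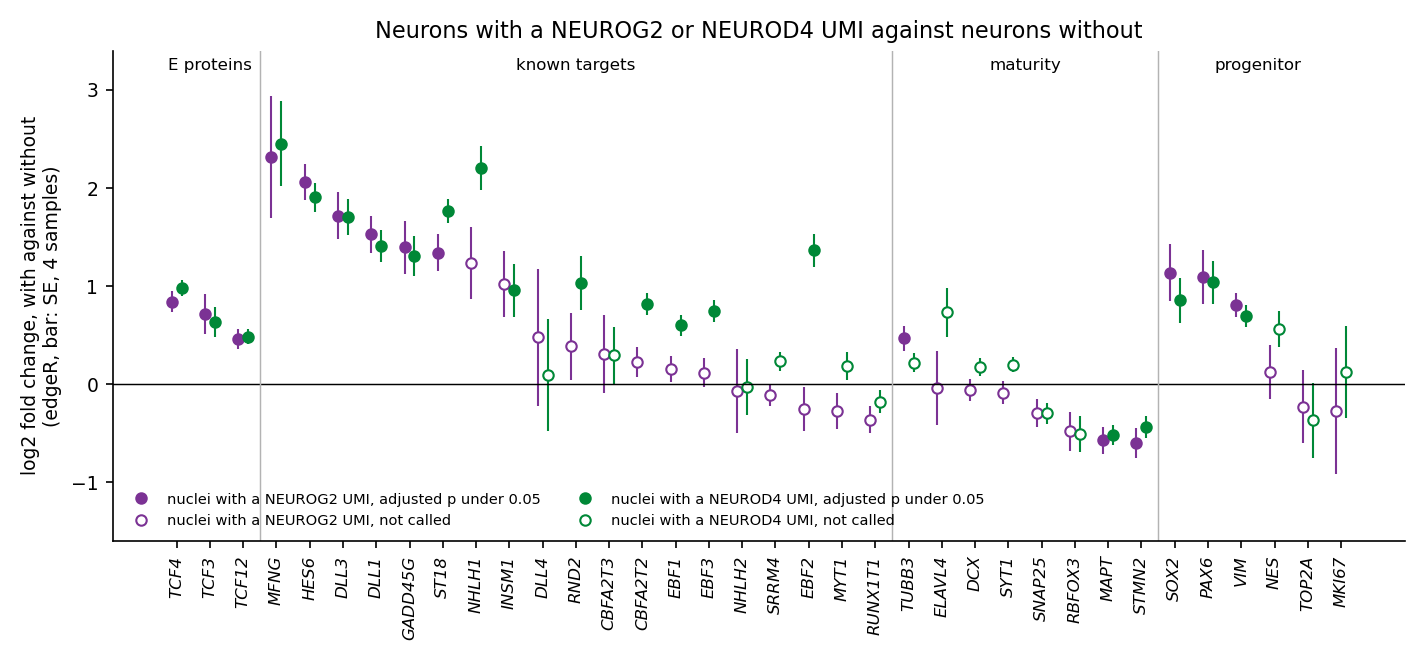
Log2 fold change with its SE of E proteins, known targets, maturity genes and progenitor genes between neurons with and without a NEUROG2 UMI and between neurons with and without a NEUROD4 UMI (edgeR, sample as a block, 4 samples), with filled points for an adjusted p under 0.05. The E proteins and HES6 (2.06 and 1.90) lie above 0 in both, and STMN2 (−0.60 and −0.44) lies below.

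Progenitors with a PTF1A UMI differed less from their neighbours. They numbered 82, 31, 72 and 33, and edgeR called 0.204% of 17195 genes, 21 higher and 14 lower. ID4, an inhibitor of bHLH factors, was at 155 ± 32.4 against 89.1 ± 20.2 CPM (SD, n = 4; log2 fold change 0.79, edgeR adjusted p = 0.00375). VIM, an intermediate filament of precursors, was at 1236 against 790 CPM (0.60). NEUROG2 was at 2.46, 13.8, 3.18 and 13.1 CPM in the PTF1A progenitors and at 2.15, 1.43, 1.26 and 1.84 CPM in the others, and was not called (1.90, edgeR adjusted p = 0.445). None of 3 E proteins or 17 tested targets was called.

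The named rises were TMEM132B (1.29), the calcium channel gene CACNA1A (1.05), PID1 (1.04), the transcription factor POU3F3 (0.95) and ENOX1 (0.95). The named falls were LRP3 (−2.32), SERPINB9 (−1.46), LINC01280 (−1.41), EPHA7 (−1.26), an ephrin receptor, and NEBL (−1.21). PP121 replicate 1 carried much of this: without it 9 genes were called, and ID4 (0.64, edgeR adjusted p = 0.363), VIM (0.52, 0.137) and LRP3 (−2.15, 0.137) were not. Among the named rises and falls, only TMEM132B kept its call in all 4 fits that left out a library. Without control replicate 1, 59 genes were called, and without control replicate 2, 21. PTF1A progenitors had a median of 8166 UMIs against 5803 in the others, and 89.9% against 93.7% of them fell in the progenitor clusters of the joint clustering.

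Neurons with a GAD1 or GAD2 UMI had less NEUROD4 than other neurons, a call that was lost outside the joint progenitor clusters. Glutamatergic neurons use the vesicular transporter SLC17A6, and GABAergic neurons use GAD1 and GAD2 to make GABA. In the 2501 neurons with a GAD1 or GAD2 UMI, NEUROD4 was at 1.86, 7.80, 2.05 and 8.75 CPM in the 4 samples, against 6.81, 9.63, 6.85 and 22.5 CPM in the neurons without. It was lower in 4 of 4 samples, with a log2 fold change of −1.24 and an SE of 0.24 (adjusted p = 0.0087 in edgeR), in a fit that called 5.8% of 18979 genes, 3.27% higher and 2.53% lower. The call was lost without PP121 replicate 1 (−1.11, edgeR adjusted p = 0.0633) and when only neurons outside the joint progenitor clusters were used (−0.73, edgeR adjusted p = 0.206). NEUROG2 had −0.58 (edgeR adjusted p = 0.268), PTF1A 0.25 and NEUROD2 0.13, none called. Of 20 tested targets, 11 were lower (CBFA2T2, DLL1, EBF1, EBF2, EBF3, HES6, MFNG, NEUROD4, NHLH1, SRRM4 and ST18) and NHLH2 was higher. Outside the joint progenitor clusters, 4 of 19 tested targets were called, all lower (EBF1, EBF2, EBF3 and SRRM4), and DLL1 (−0.0123), HES6 (−0.106) and ST18 (−0.146) were among those that were not.

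In the 875 neurons with a SLC17A6 UMI neither NEUROD4 nor NEUROG2 was called. NEUROD4 was at 1.97, 1.87, 5.31 and 9.19 CPM, against 4.19, 10.7, 4.49 and 23.1 CPM in the neurons without, lower in 3 of 4 samples (log2 fold change −1.01, edgeR adjusted p = 0.0853). Without PP121 replicate 1 it was called (−1.54, edgeR adjusted p = 0.0114), and among neurons outside the joint progenitor clusters it was 0.08. NEUROG2 was at 1.43 ± 1.07 against 3.81 ± 1.67 CPM (SD, n = 4), lower in 4 of 4 samples and not called (−1.27, edgeR adjusted p = 0.0913). That fit called 8.64% of 17104 genes, 5.75% higher and 2.89% lower. Of 19 tested targets, 5 were higher (EBF1, EBF2, EBF3, RUNX1T1 and SRRM4) and 6 lower (DLL1, DLL3, HES6, INSM1, NHLH1 and ST18). All 3 E proteins were lower. Outside the joint progenitor clusters those 5 targets were still called higher, INSM1 was the 1 target called lower, and TCF4 and TCF12 kept their call while TCF3 did not (−0.22, edgeR adjusted p = 0.321).

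The neurons with neither transmitter marker held most of the NEUROD4 and NEUROG2 UMIs. These 3296 of the 6557 neurons had 306 of the 423 neuronal NEUROD4 UMIs, at 14.2 ± 10.2 CPM (SD, n = 4). They had 106 of the 173 NEUROG2 UMIs, at 4.67 ± 1.79 CPM. NEUROD4 was at 4.91 ± 3.62 CPM in the 2386 neurons with GAD1 or GAD2 alone and at 3.74 ± 4.20 CPM in the 760 with SLC17A6 alone. NEUROG2 was at 2.49 ± 0.982 and 1.44 ± 1.00 CPM in those groups, and it was called in neither split above. PTF1A was at 2.00 ± 0.852 CPM with GAD1 or GAD2 alone and 1.33 ± 0.764 CPM with neither, a difference within the spread of the samples. A neuron without a UMI of these genes may still express them, since the depth per nucleus is limited.

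**Figure D5:**
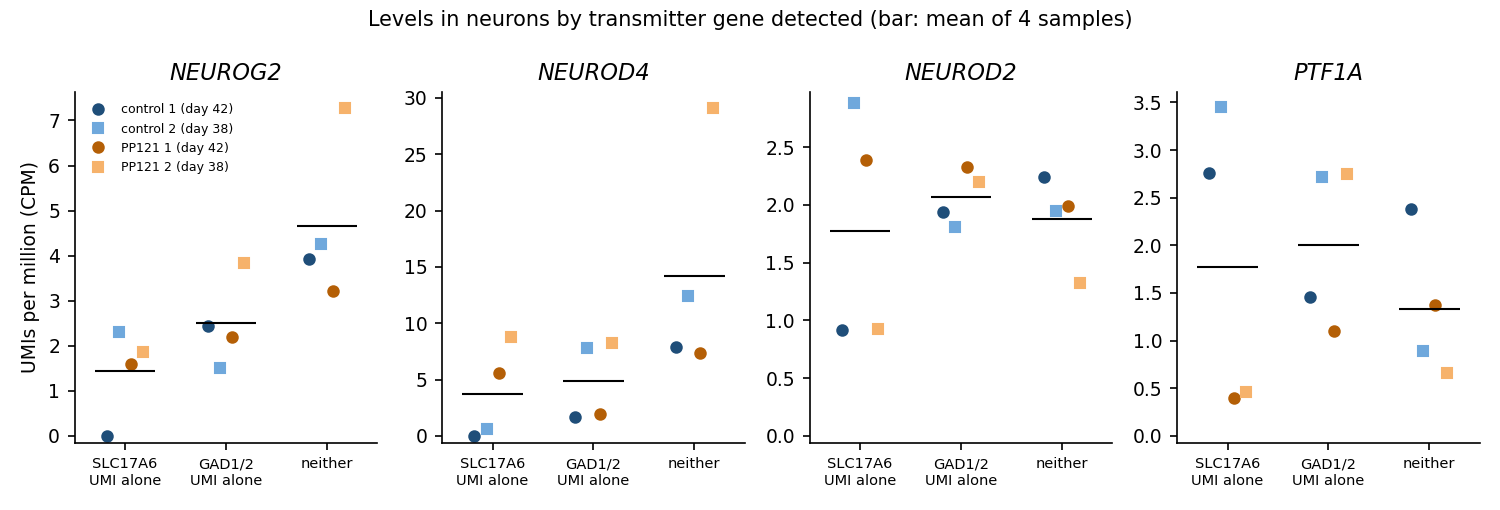
Levels (CPM) of NEUROG2, NEUROD4, NEUROD2 and PTF1A in neurons with a SLC17A6 UMI alone, with a GAD1 or GAD2 UMI alone and with neither, with 1 point per sample and a bar at the mean. NEUROD4 averages 14.2 CPM with neither marker, 4.91 CPM with GAD1 or GAD2 and 3.74 CPM with SLC17A6, and NEUROD2 shows no such order.

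Last, the genes with the most similar pattern across samples and classes were listed for the 4 members with at least 100 UMIs. Likeness was Pearson's r of log2(CPM + 1) over 23 sums of a sample and a class, among 11662 genes, and the sums share libraries, days and class definitions, so it is a description. NEUROD4 was most like LINC00599 (r = 0.840), POU2F2 (0.835) and SRRM4 (0.817), a neuronal splicing factor that is also on the list of targets, with ADARB2 also among the nearest. NEUROG2 was most like SCN8A (r = 0.865), a neuronal sodium channel, AC092279.1 (0.863) and MEGF9 (0.848). PTF1A was most like PHYHIPL (r = 0.833) and ACVR2A (0.827), and NEUROD2 like WDR73 (0.847), with lower values for the next gene (ZNF821, 0.795).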

How the data were processed

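The deposited counts are UMIs per gene and nucleus (10x 3′ v3.1 libraries with hashtags). The authors' methods name kallisto and bustools with Seurat v4, whereas the submitters' processing notes list Cell Ranger, Seurat 4.0.4 and GRCh38. Counting of introns and use of strand are not given in the sources used here. Class, subtype, phase and day were taken as the authors deposited them, and nuclei marked as filtered were dropped. Their deposited percent of ribosomal and mitochondrial counts was not used in a test.

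UMIs were summed per sample and class (23348045 to 34123759 UMIs per sample) with Python 3.11.15. Comparisons used edgeR 4.0.16 (R 4.3.3), two-sided, with TMM, filterByExpr and Benjamini-Hochberg adjustment over all genes tested at 0.05. The fit with the replicate as a block leaves 1 residual degree of freedom. Same-numbered samples are of the same deposited day and deviated together (correlations of 0.421 in neurons, 0.284 in progenitors and 0.532 in all nuclei). Splits of nuclei and phases had the sample as a block. DESeq2 1.42.0 was an alternative. The steps were tested on simulated data. Shares have exact Clopper-Pearson 95% intervals. Joint clusters were made with scanpy 1.11.5 from 2000 variable genes and 18 components at a resolution of 0.2.

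The members and lists were chosen with earlier results of these data known. Named were every member, in each split the 5 largest rises and falls among called genes of at least 10 CPM with 1 direction in all 4 samples, up to 4 changed genes per list, and the 5 genes most like each member. Some genes that these rules cover are not reported here. Promoters of 7 of the 9 members were in the RefSeq table, and OLIG2 and PTF1A were not.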

Additional observations from a re-analysis of the deposited data

Results flagged for a closer look

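Some members moved opposite ways under PP121 on the 2 dated days, each day with 1 control and 1 PP121 sample, so the difference was not tested. In neurons the log2 ratio of PP121 to control CPM of NEUROG2 was −0.1994 on day 42 and 0.82 on day 38. That of NEUROD2 in neurons was 0.019 on day 42 and −0.4181 on day 38, and its day-42 value lies close to 0. In progenitor 1 and 2 together, the ratio of NEUROG2 was −0.6986 on day 42 and 0.285 on day 38, and that of NEUROD4 was −0.5351 on day 42 and 1.1645 on day 38. The progenitor values rest on 38 and 36 UMIs of NEUROG2 and NEUROD4 on day 38 and on 48 and 45 UMIs on day 42.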

How the results depend on the processing

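The counts of called genes below are from edgeR's quasi-likelihood test unless DESeq2 is named. Under DESeq2 they were 102 for PP121 in neurons, 43 in progenitors and 48 in all nuclei, 59 for the day in neurons and 106 in progenitors, 686 for G2M against G1 in progenitor 1, 21 for PTF1A progenitors, 976 for SLC17A6 neurons and 695 for GAD1 or GAD2 neurons. Adjusted p-values that DESeq2 leaves blank were left blank. Without the filter on low counts they were 69, 270 and 1 for PP121 in neurons, progenitors and all nuclei, 158 and 40 for the day in neurons and progenitors, 161 for S against G1 in progenitor 1, 819 for NEUROG2 neurons, 76 for PTF1A progenitors and 1820 for GAD1 or GAD2 neurons. Using only nuclei of at least 5000 UMIs gave 20 for PTF1A progenitors.

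The replicate block gave 3153 genes for PP121 in neurons, 349 in progenitors and 213 in all nuclei, and the treatment term gave 2016 for the day in neurons and 606 in progenitors. Among the members, the block changed the PP121 call of NEUROD4 in neurons, and the term changed the day calls of NEUROD4 and NEUROG1 in neurons. The following alternatives were chosen after seeing the data. Leaving out the 6% of nuclei with the highest doublet scores gave 2950 genes with the block, and put NEUROD2 under PP121 in neurons at 0.0562, or 0.0648 with the block. Classes from joint clusters gave 673 genes in neurons and 538 in progenitors with the block, and NEUROG2 in progenitors was 0.047 there without it. Nuclei of the same class in the joint clusters gave 75 genes for NEUROG2 neurons and 226 for NEUROD4 neurons. In the NEUROD4 neurons INSM1 was then −0.2506 and STMN2 0.004292. In the SLC17A6 neurons NEUROD4 was 0.0832, HES6 0.0249 and TOP2A 0.1626, and in the GAD1 or GAD2 neurons NEUROG2 was 0.2376, NEUROD2 −0.0472 and TOP2A 0.2246. The cause of these changes was not tested. Removal of nuclei that Scrublet calls doublets was planned and not run, since it called 0 nuclei in 3 libraries and 1 in the other.

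Leaving out each library in turn gave 0 to 1402 genes for PP121 in neurons, 0 to 168 in progenitors and 0 to 8 in all nuclei, and 2 to 271 for the day in neurons and 2 to 1031 in progenitors. It gave 425 to 1020 and 29 to 61 for G2M and S in progenitor 1, and 990 to 1418 and 397 to 606 in progenitor 2. It gave 236 to 575 for NEUROG2 neurons, 672 to 984 for NEUROD4 neurons, 9 to 59 for PTF1A progenitors, 879 to 1125 for SLC17A6 neurons and 530 to 1120 for GAD1 or GAD2 neurons. A fit that leaves 1 sample in an arm assumes that it varies like the others. The ranges of log2 fold changes that crossed 0 were, for PP121 in neurons, −1.4204 to 1.2126 (NEUROG1), −0.2258 to 0.9366 (NEUROG2), −0.3946 to 0.0736 (NEUROD2) and −0.4505 to 1.6729 (NEUROD4). For PP121 in progenitors they were −0.6322 to 0.1973 (NEUROG2), −0.2897 to 0.7889 (NEUROD4) and −0.653 to 0.241 (PTF1A). For PP121 in all nuclei they were −1.9109 to 6.164 (NEUROG1), −0.2995 to 0.5037 (NEUROG2), −0.216 to 0.3429 (NEUROD2), −0.3845 to 1.232 (NEUROD4) and −0.5578 to 0.1292 (PTF1A). For the day they were −0.4756 to 0.3575 (PTF1A, neurons) and −0.345 to 0.7933 (NEUROD4, progenitors). For PTF1A in progenitor 2 they were −0.0472 to 0.3868 (G2M) and −0.4168 to 0.2712 (S), and for GAD1 or GAD2 neurons −0.00663 to 0.2655 (NEUROD2) and −0.002085 to 0.8622 (PTF1A). Over the alternatives that leave out no library, counts of genes stayed within 1.5 times 30 times and moved further 29 times, and of single genes and shares 575 values kept their direction and side of the threshold, 98 lost a call, 9 gained one, 11 changed direction and 21 moved. Counts limit what can be seen: NEUROD6, OLIG2 and ATOH1 could not be tested, and 3 to 6 of the 9 members passed the filter in the comparisons of samples.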
